A study of Mus musculus with 6 samples.

Results

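Chromosome 10 carried more LncMyoD ChIRP regions per Mb than any other mouse autosome. ChIRP-seq pulls down a chosen RNA from crosslinked, sonicated chromatin with biotin-labelled DNA probes and sequences the DNA that comes with it. Here the RNA was LncMyoD, and the cells were C57BL/6 primary myoblasts that had been kept for 2 days in medium with 2% horse serum and are labelled as differentiated myotubes. The 6 samples were an odd and an even probe pool and an input, 2 replicates each, and all carried the same genotype and treatment. The files hold 1 peak list per replicate in mm10 coordinates, of 157214 peaks for replicate 1 and 179630 for replicate 2, and do not tell the pools or the input apart. Peaks of both lists that touched by 1 bp or more were joined, and a joined stretch holding at least 1 peak from each replicate is called a shared region. All shared regions on chromosome 10 were kept, 6086 of 97493 in the genome. Chromosome 10 was chosen because its density was the highest of the 19 autosomes, so that density is given as a description and no test was run on it or on other values of the same peaks.

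LncMyoD is a long non-coding RNA that is induced by the transcription factor MyoD when myoblasts leave the cell cycle and fuse. MyoD, Myf5 and their partners of the E protein family bind the E-box, the short DNA motif CANNTG, at muscle genes. Chromosome 10 is an autosome of medium length that holds the paired myogenic genes Myf5 and Myf6, the E protein gene Tcf3, the laminin gene Lama2 and the growth factor gene Igf1. Peak lists record where captured DNA exceeded a local background, and carry no RNA level, so the muscle identity of the cells was not checked here.

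Promoter DNA under shared regions is printed first, so that the captured sequence itself can be read beside the counts that follow. The RefSeq table (assembly GRCm38.p6, the one behind mm10) gives the 250 bases before gene starts, and 16 genes of the lists described below, receptor clusters aside, had such a stretch under a shared region. Over all genes of chromosome 10 with such a stretch it was 199 of 1375, and the 16 are not read as a result about the lists. For 7 of the 16 genes the stretch lay outside the span of every annotated gene, and the 3 with the strongest regions are shown, a choice made after their values were seen. Sesn1 encodes a stress-induced regulator of mTORC1 signalling, Upb1 an enzyme of pyrimidine breakdown and Amd1 an enzyme of polyamine synthesis. The sequences run 5′ to 3′ along the gene, and capitals mark each match to CANNTG, a motif that reads as itself on both strands.
Sesn1 promoter, chr10:41810324-41810573, plus strand: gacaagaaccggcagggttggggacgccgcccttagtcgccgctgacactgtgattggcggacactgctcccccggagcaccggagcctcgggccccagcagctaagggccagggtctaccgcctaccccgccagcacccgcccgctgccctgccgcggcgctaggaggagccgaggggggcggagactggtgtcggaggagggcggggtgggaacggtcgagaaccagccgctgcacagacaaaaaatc
Upb1 promoter, chr10:75406661-75406910, plus strand: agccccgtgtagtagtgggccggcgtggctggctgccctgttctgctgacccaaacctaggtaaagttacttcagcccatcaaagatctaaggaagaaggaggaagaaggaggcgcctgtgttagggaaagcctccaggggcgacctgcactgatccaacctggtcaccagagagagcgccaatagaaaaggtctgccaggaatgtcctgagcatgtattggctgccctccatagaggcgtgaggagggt
Amd1 promoter, chr10:40302189-40302438, minus strand: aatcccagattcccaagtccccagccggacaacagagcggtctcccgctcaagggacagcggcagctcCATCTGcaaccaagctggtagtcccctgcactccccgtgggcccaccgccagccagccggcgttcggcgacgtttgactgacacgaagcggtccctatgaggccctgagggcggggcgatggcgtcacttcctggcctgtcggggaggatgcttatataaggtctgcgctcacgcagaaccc
All 3 stretches lay wholly inside their shared region, whose folds over background were 36.2 in replicate 1 and 38.9 in replicate 2 at Sesn1, 31.6 and 34.7 at Upb1, and 41.3 and 17.2 at Amd1. Fold is the authors' ratio of the pileup at the summit to the background, and is compared only within a list. The Amd1 promoter had 1 CANNTG, and those of Sesn1 and Upb1 had 0. CANNTG occurred in 64.6% of all 1649 promoters of chromosome 10 and in 66.2% of the 29747 of the other 18 autosomes, so it was common in promoters of this length and its absence says nothing of binding. CANNTG was in 63.6% of the overlapped promoters of chromosome 10 and in 64.7% of the others there, against 64.5% and 66.4% on the other autosomes. The CAGCTG form occurred in 16.8% of the 214 promoters of chromosome 10 that overlapped a shared region and in 12.3% of the 1435 that did not, against 14.7% and 12.9% on the other autosomes. Overlapped promoters were richer in G and C, with a median of 58% against 51.2% on chromosome 10, and 58% against 52% elsewhere.

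Of 23 muscle genes listed for chromosome 10, 15 had a promoter in the table, and 3 of these lay under a shared region: Myf5, which encodes a myogenic bHLH factor, Lama2, which encodes the laminin chain that links the muscle fibre to its basement membrane, and Nmrk2, a nicotinamide riboside kinase gene. All 3 genes are on the minus strand, and their annotated spans reach to 107486927 (Myf5), 27617191 (Lama2) and 81202265 (Nmrk2). The stretches lie at 107486135 to 107486384, 27616943 to 27617192 and 81202038 to 81202287, mostly or wholly inside the span of the gene itself. Of their 250 bases, 250, 249 and 250 lie in a gene's span, so they may be transcribed and are not printed. They held 0, 1 and 2 matches to CANNTG. The region over the Myf5 stretch spanned 107486147 to 107487142 and reached folds of 31.8 in replicate 1 and 20.4 in replicate 2. The Lama2 region (27616513 to 27618152) had folds of 15.1 and 17.5 and covered the whole stretch. The Nmrk2 region (81201239 to 81202212) was the weakest of the 3, with folds of 11.6 and 6.01. Of all promoters on chromosome 10, 13.0% overlapped a shared region, against 8.64% ± 1.03 on the other autosomes (mean and SD over 18 autosomes, highest 10.5% on chromosome 17). Counted by gene, as for the muscle list, it was 199 of 1375 on chromosome 10. The chromosome was chosen by its density of shared regions, so its higher share of overlapped promoters is not a separate result.

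Chromosome 10 held 46.6 shared regions per Mb of its length of 130.6 Mb, against 36.7 ± 2.68 on the other autosomes. The next in order were chromosome 11 with 42.1 and chromosome 7 with 41.2, and the lowest was chromosome 3 with 32.2. The chromosome makes up 5.31% of autosomal length and held 6.64% of autosomal shared regions. At the mean density of the other autosomes it would hold 4796 regions, 1290 fewer than counted. It was first in both lists. Replicate 1 had 71.7 peaks per Mb on chromosome 10 against 58.9 ± 3.76, and replicate 2 had 83.1 against 68.2 ± 4.80. The highest of the other autosomes was chromosome 11 in both lists, with 65.7 and 78.5.

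**Figure D1:**
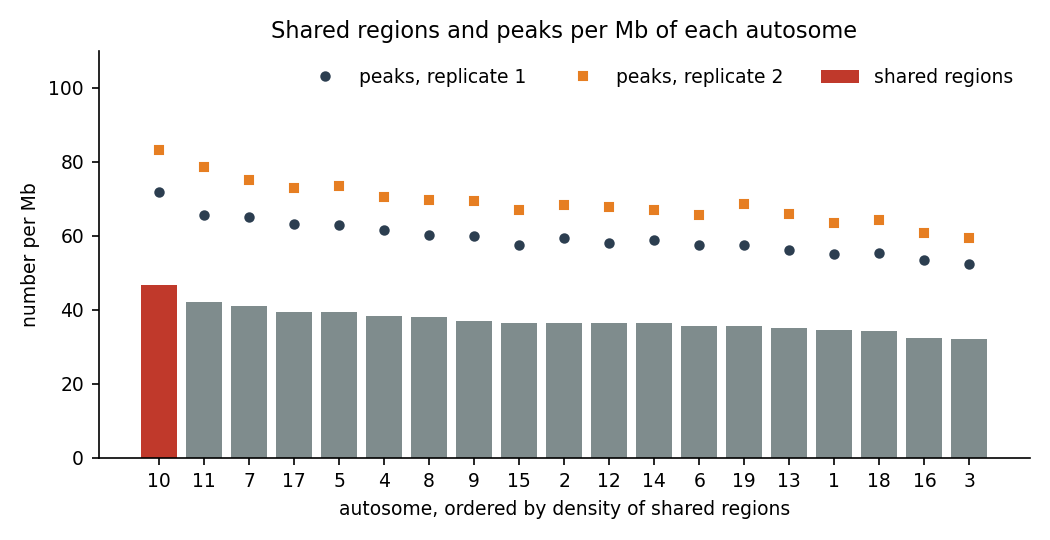
Shared regions per Mb (bars, red for chromosome 10) and peaks per Mb of replicate 1 (circles) and replicate 2 (squares) on each of the 19 autosomes, ordered by shared regions. Chromosome 10 stands first in all 3 counts, at 46.6 shared regions, 71.7 peaks and 83.1 peaks per Mb.

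The excess lay mostly in peaks that the replicates shared. Shared regions are made of such peaks and chromosome 10 was chosen by them, so this is not a separate result. Of the chromosome 10 peaks, 71.6% in replicate 1 and 60.3% in replicate 2 had a partner in the other list, the highest shares of any autosome (67.6% ± 0.921 and 57.4% ± 0.774 on the others). Chromosomes 11 and 7, the next in density, had 69.3% and 68.7% in replicate 1 and 57.4% and 58.6% in replicate 2. Peaks without a partner were only 1.07 and 1.13 times as dense as on the other autosomes, 20.4 against 19.1 ± 0.897 per Mb in replicate 1 and 33.0 against 29.1 ± 2.04 in replicate 2. Regions were also slightly wider, with a median of 780.5 bp against 754 ± 12.4 bp. Wide regions of over 3 kb numbered 59, 0.969% of the chromosome's regions against 0.566% ± 0.144 on the others. Shared regions covered 4.44% of chromosome 10 and 3.34% ± 0.274 of the other autosomes.

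The density was raised along most of the chromosome and did not come from a few windows. Over fixed windows of 1 Mb from position 0, the first 3 windows held no peak. The other 128 had a median of 44 shared regions, against 35 in 2286 windows of the other autosomes. In 100 of the 128 windows (78.1%) the count was above that median of 35, against 47.4% of windows elsewhere. The 25th and 75th percentiles were 36.75 and 56.25 on chromosome 10 and 28 and 45 elsewhere, so the middle of the distribution was shifted as well as its top. Low windows were rare: 4 windows lay under 22.5, the 10th percentile of the other windows. The 13 densest windows held 17.9% of the chromosome's regions, close to the 17.2% ± 1.197 held by the densest 10% of windows on the other autosomes.

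**Figure D2:**
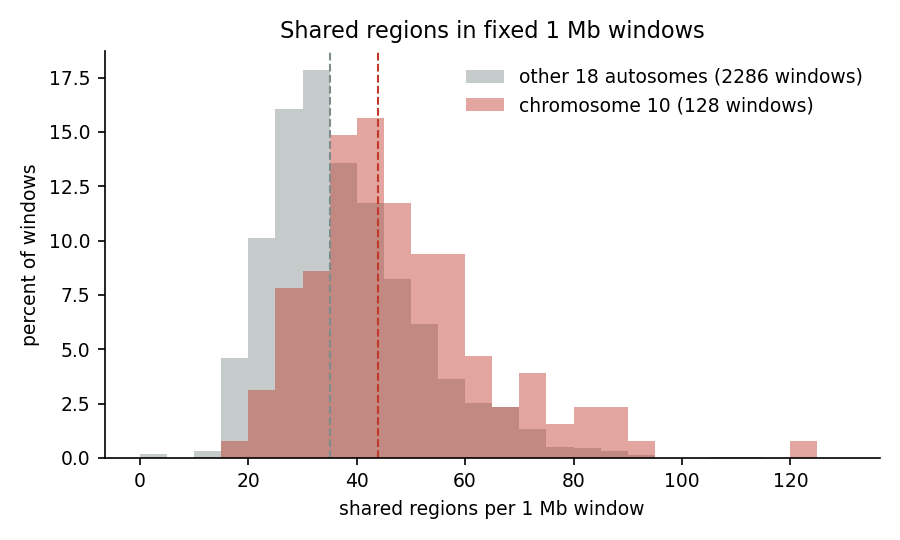
Share of 1 Mb windows (percent) by number of shared regions, for chromosome 10 (red, 128 windows) and the other 18 autosomes (grey, 2286 windows), with dashed lines at the medians. The chromosome 10 distribution is shifted as a whole, with medians of 44 and 35, and its densest window holds 122 regions.

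By averages over 10 Mb, the densest part of the chromosome ran from 60 to 90 Mb. Single windows in it varied, with 28 regions in those from 64000001 and from 72000001. The 10 windows from 60 to 70 Mb averaged 58.8 regions, those from 70 to 80 Mb 59.6 and those from 80 to 90 Mb 63.8, which is 1.57, 1.59 and 1.7 times the mean window of the other autosomes. A further rise lay from 120 to 130 Mb, with 54.7. The lowest stretches were 100 to 110 Mb with 34.9 regions per window and 50 to 60 Mb with 37.0, ratios of 0.932 and 0.988. The densest window of chromosome 10, from 80000001 to 81000000, held 122 regions, the most of all 2414 autosomal windows. It contains 54 protein-coding genes, among them the E protein gene Tcf3, the kinase gene Stk11, the cold-inducible RNA-binding protein gene Cirbp, the stress response gene Gadd45b and the creatine synthesis gene Gamt. The windows of the next 3 places held 90 regions (77000001 to 78000000, with the RNA editing gene Adarb1 and the collagen gene Col18a1), 87 (81000001 to 82000000, with the elongation factor gene Eef2 and the transcription factor gene Nfic) and 86 (61000001 to 62000000, with the TGF-beta family gene Nodal and the collagen gene Col13a1). Chromosome 10 gave 11 of the 50 densest autosomal windows and 5.30% of all of them.

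The sparsest windows were poor in genes. The 4 lowest held 17 regions (from 16000001), 20 (from 54000001), 21 (from 49000001) and 22 (from 101000001). None of them contained a protein-coding gene by midpoint except the window from 49000001, which holds Grik2, a kainate receptor gene of neurons. Neighbouring windows resembled each other, with Pearson's r of 0.60 between the counts of adjacent windows over 128 windows, which share libraries. The peak counts of the lists followed each other across these windows (r = 0.95).

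Gene density did not set chromosome 10 apart. It had 7.66 protein-coding genes per Mb, against 8.48 ± 2.52 on the other autosomes, and stood in place 10 of 19. Chromosomes 11 and 7, which followed it in region density, had 13.1 and 13.9 genes per Mb. Counted over all gene types of the table, chromosome 10 had 17.4 genes per Mb against 19.2 ± 3.61. Protein-coding genes covered 41.8% of its length, against 41.0% ± 4.13. Across the other 18 autosomes the density of shared regions rose with that of genes (Pearson's r = 0.75, Spearman's rho = 0.73, a description over chromosomes that share both libraries). A straight line through those 18 gave 36.1 regions per Mb at the gene density of chromosome 10. The measured value lay 10.5 above the line, while the residuals of the 18 had an SD of 1.78 and ran from -3.57 to 2.78.

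Within classes of gene content, chromosome 10 windows were still denser. In windows without a protein-coding gene, they held 32.3 ± 10.7 shared regions (mean and SD over 13 windows) against 26.1 ± 6.69 (258 windows). Windows with 1 to 5 genes held 41.8 ± 11.1 against 31.9 ± 9.49, and those with 6 to 15 genes held 50.9 ± 12.3 against 41.6 ± 12.8. These ratios of 1.24, 1.31 and 1.22 were alike. In windows of over 15 genes the ratio was 1.58, with 78.6 ± 20.01 regions in 12 windows against 49.8 ± 14.6 in 396. This last class has no upper limit, and its chromosome 10 windows held 16 to 54 genes. Gene content inside it was not matched, so this ratio may hold a difference in gene number. In each of the 4 classes the median of chromosome 10 was above that of every other autosome. The windows of a chromosome are neighbours and not replicates. Inside protein-coding genes there were 50.9 regions per Mb against 39.0 ± 3.89, and outside them 45.5 against 36.7 ± 2.00, and chromosome 10 was first of 19 in both.

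**Figure D3:**
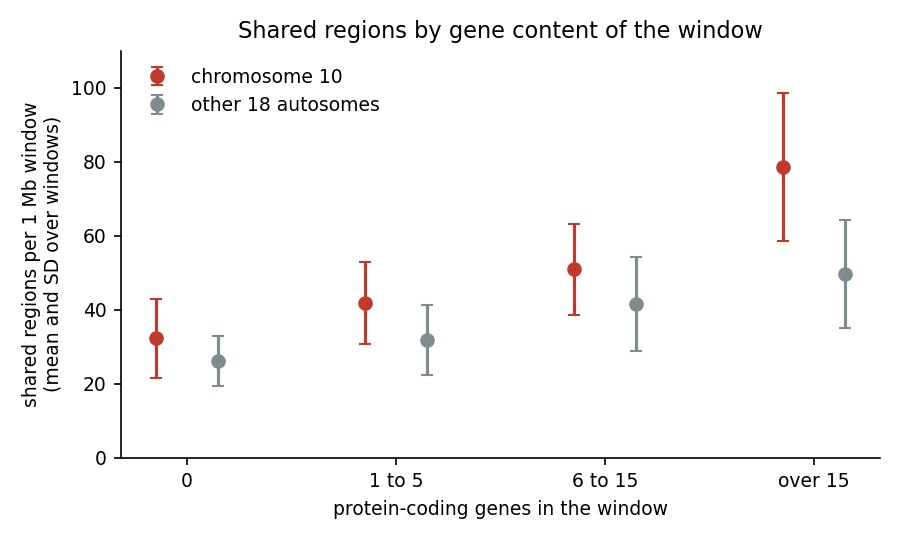
Shared regions per 1 Mb window (points, mean; bars, SD over windows) by the number of protein-coding genes in the window, for chromosome 10 (red) and the other 18 autosomes (grey). The chromosome 10 mean is higher in every class, by 1.22 to 1.58 times, and both sets rise with gene content.

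The authors' fold differed little between chromosome 10 and the rest. Over all peaks, the median fold was 8.08 on chromosome 10 and on the other autosomes in replicate 1, and 8.04 against 8.14 in replicate 2. Among peaks with a partner, the median fold on chromosome 10 was 0.083 higher as a mean over the lists, and among those without a partner the difference was -0.29. The 90th percentiles were 29.4 against 28.6 and 28.5 against 28.1. Median −log10 q was 15.7 against 15.4 in replicate 1 and 18.3 against 17.6 in replicate 2, and median peak width was 400 against 385 bp and 416 against 396 bp. At equal fold the density stayed higher: at 20-fold or more it had 13.7 peaks per Mb against 10.8 ± 0.753 in replicate 1 and 15.4 against 12.4 ± 0.819 in replicate 2, ratios of 1.27 and 1.24. At 80-fold or more the counts were small, 0.168 and 0.0383 per Mb, and chromosome 10 stood in places 6 and 7 of 19. By mean percentile of −log10 q over both lists, 80 of the 1000 strongest autosomal regions were on chromosome 10 (8%), as were 755 of the strongest 10000 (7.55%) and 13 of the strongest 100, beside 6.64% of all autosomal regions.

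The share of peaks with a raised local background set chromosome 10 apart from the other autosomes. The caller scores each peak by its pileup, the number of overlapping fragments at the summit, against a background that is the higher of a genome-wide floor and local estimates. Fold and p together give both numbers: for every peak of both lists a whole-number pileup was found that gave back the deposited −log10 p within 0.001 under a Poisson model, with 1 added to pileup and background in the fold. The floor was 1.723 fragments in replicate 1 and 2.238 in replicate 2, no peak lay below it by over 0.02, and peaks more than 0.02 higher are counted as above it. On chromosome 10, 7045 of 9364 peaks of replicate 1 (75.2%) had a background above the floor, against 30.9% ± 1.57 on the other autosomes, of which chromosome 4 was highest with 33.6%. In replicate 2 it was 7747 of 10850 peaks (71.4%) against 23.6% ± 1.32, with at most 26.7% on chromosome 5. The median background on chromosome 10 was 1.93 in replicate 1 and 2.51 in replicate 2, 1.12 times the floor in each, while the median peak of every other autosome was at the floor. The mean background, which a few peaks can move, was 2.14 on chromosome 10 in replicate 1, in place 2 after chromosome 9 with 2.198, and 2.71 in replicate 2, in place 1. A background of at least 1.2 times the floor was found for 33.2% and 37.0% of chromosome 10 peaks, against 12.7% and 11.6% of those on the other autosomes.

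This rise ran along the whole chromosome. Among its 13 stretches of 10 Mb with at least 5 windows, the share of peaks above the floor ran from 64.7% to 84.4% in replicate 1 and from 53.9% to 84.1% in replicate 2. None of 235 such stretches on the other autosomes came up to the lowest of these, the highest being 49.8% and 42.1%. Within chromosome 10 the share was highest from 80 to 90 Mb, the stretch with the most shared regions, and lowest from 100 to 110 Mb, the stretch with the fewest. Peaks without a partner had it as well, with 71.5% and 70.7% above the floor on chromosome 10 against 28.3% and 21.2% on the other autosomes. Chromosomes 11 and 7, the nearest in region density, had 29.6% and 32.3% in replicate 1 and 23.7% and 25.1% in replicate 2, within the range of the other autosomes.

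**Figure D4:**
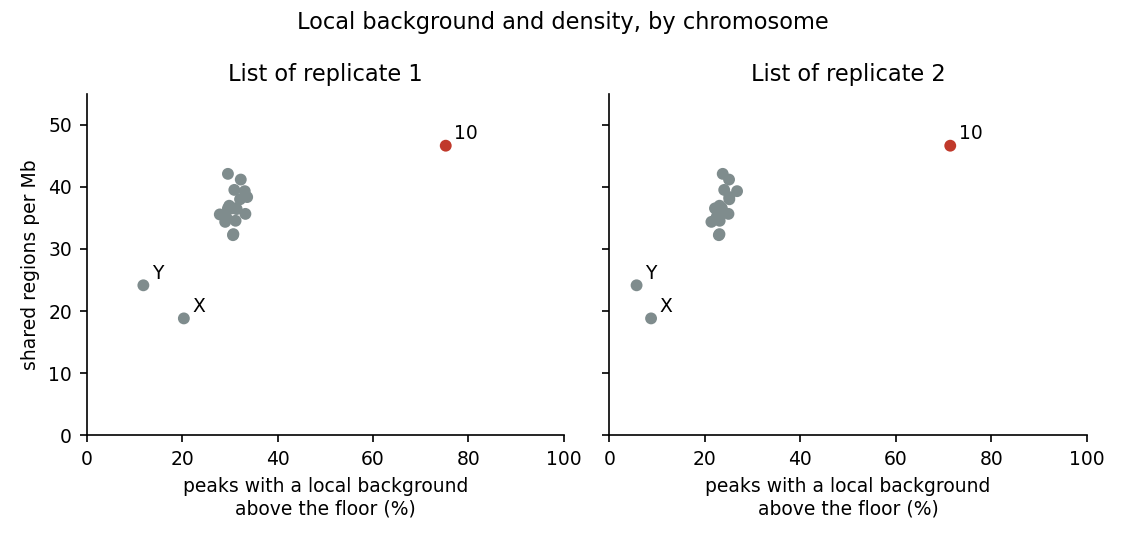
Shared regions per Mb against the percent of peaks with a local background above the floor, for the 19 autosomes, X and Y, in the list of replicate 1 (left) and replicate 2 (right). Chromosome 10 (red) lies apart at 75.2% and 71.4%, and the other autosomes lie between 21.4% and 33.6%.

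For peaks of at least 40 fragments the excess on chromosome 10 was larger than for peaks of 5-fold to 40-fold, and chromosome 10 was first of 19 by either at 5-fold to 40-fold and at 20 to 160 fragments. Its median pileup was 24 fragments against 22 on the other autosomes in replicate 1 and 28 against 27 in replicate 2. Peaks of at least 40 fragments were 1.38 times as dense as on the other autosomes in replicate 1 (22.8 against 16.6 ± 1.07 per Mb) and 1.34 times in replicate 2 (30.8 against 22.9 ± 1.60). At 160 fragments or more the ratios were 1.56 (1.79 against 1.15 ± 0.164) and 1.66 (2.86 against 1.72 ± 0.183). Density ratios at equal fold stayed at 1.18 to 1.32 from 5-fold to 40-fold. Local background, pileup and density were thus all higher on chromosome 10, and the part of the background in the density was not tested. Read coverage, the input library on its own and the number of copies of the chromosome in these cells were not analysed here.

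**Figure D5:**
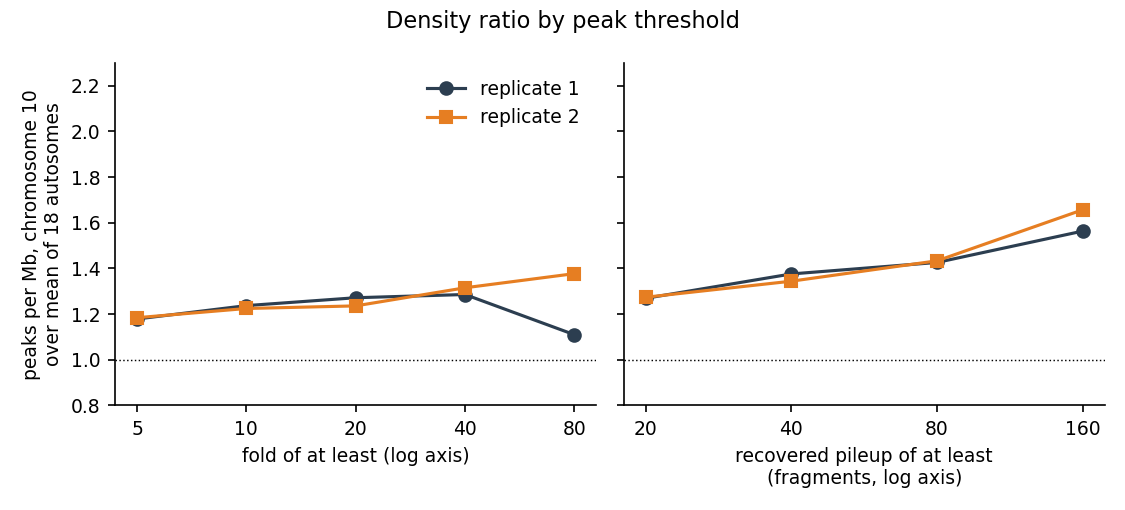
Peaks per Mb on chromosome 10 divided by the mean of the other 18 autosomes, for peaks at or above a fold (left) or a recovered pileup in fragments (right), both on log axes, in replicate 1 (circles) and replicate 2 (squares). The ratio rises from 1.27 at 20 fragments to 1.56 and 1.66 at 160 fragments, and is 1.11 and 1.38 at 80-fold, where few peaks remain.

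The 10 strongest shared regions of chromosome 10, by mean percentile of −log10 q, were spread from 21 to 126 Mb, and 9 of them are described. The first (71239678 to 71244326) lay 1350 bp from Tfam, which encodes the transcription factor of mitochondrial DNA, with folds of 59.1 and 49.8 and ranks 15 and 24 by q in the lists. A region over the pseudogene Gm18777 (66740199 to 66742837) had the highest fold of the chromosome in replicate 1, 108, and 82.5 in replicate 2. Strong regions also lay inside Afg1l, the gene of a mitochondrial ATPase (93.5-fold and 69.2-fold), and inside Tpd52l1 (84.5-fold and 83.7-fold). The gene of the membrane scaffold ankyrin-G, Ank3, held a region of 79.9-fold and 67.2-fold, Cfap54 one of 96.8-fold and 62.0-fold, and Prdm1, which encodes the repressor Blimp-1, one of 106-fold and 75.3-fold. The remaining regions lay 37568 bp from the lncRNA gene 1700025K04Rik and 18963 bp from Ahi1. Of the 10, 5 were over 3 kb wide and none was nearest to a gene of the muscle list. That list holds 23 of the 2271 genes of the chromosome, so a count of none says little about muscle genes.

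Long genes held the most regions. Anks1b, a neuronal scaffold gene of 1100 kb, held 57 region midpoints, and the protocadherin gene Pcdh15 (1554 kb) held 55. Nkain2 (1208 kb) held 45 and the alpha-catenin gene Ctnna3 (1574 kb) 44. Per length these differed: Anks1b had 51.8 per Mb, above the chromosome's 46.6, and Ctnna3 had 28.0. The median folds of the regions inside them were 12.9 and 13.2 for Anks1b and 9.59 and 10.8 for Ctnna3.

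The share of genes with a region close by was higher on chromosome 10 than on any other autosome. Chromosome 10 was chosen by the density of these regions, so this is not a separate result. Of its 1001 protein-coding genes, 711 (71%) lay with an end no more than 5 kb from a shared region, against 58.6% of the genes of the other autosomes pooled, 59.2% over all 19, and 58.3% ± 4.24 as a mean over them (highest 66.4%, chromosome 15). Median gene length was similar, 17253 against 17614 bp. The median place of the best region, as a mean percentile of −log10 q, was 77.8 against 73.9.

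Of the 23 muscle genes, 14 (60.9%, exact 95% interval 38.5 to 80.3%) had a shared region within 5 kb, against 71% of all protein-coding genes of the chromosome, and folds below are those of the best such region. Within 1 kb it was 10 of 23, against 37.6% of all, and for peaks of at least 20-fold 6 of 23, against 24.4%. At −log10 q of at least 5 it was 14 of 23, against 67.8%, and with a reciprocal overlap of 50% 13 of 23, against 57.4%. The muscle share was thus above that of all genes at 1 kb and 20-fold and below it at the other settings, without intervals for these. The median best percentile of the muscle genes was 80.5, against 77.8 for all protein-coding genes of the chromosome with a region. The strongest region was shared by the neighbours Myl6 and Myl6b, which encode essential light chains of myosin (128486925 to 128490813, 78.1-fold and 76.3-fold). The slow myosin-binding protein gene Mybpc1 had one of 45.1-fold and 74.0-fold, and Naca, whose long isoform acts in sarcomere assembly, one of 25.9-fold and 25.3-fold. Among genes of the myogenic programme, Myf5 had a region over the stretch inside its span described above, while its neighbour Myf6 had no region within 5 kb. The Myf5 region ended at 107487142 and Myf6 spans 107492848 to 107494723, so that region lay little beyond the limit. Tcf3 had no region within 5 kb either, although it lies in the window with the most regions of any autosome. Vgll2, Pln, Csrp2 and Hey2 had no region in the gene or near its ends. Trdn, the gene of triadin at the calcium release unit, had 14 regions inside the gene and none within 5 kb of an end, and Txlnb (3) and Eya4 (6) were of the same kind. Among long genes of the muscle membrane and nucleus, Lama2 (635907 bp) held 21, the utrophin gene Utrn (487702 bp) 17 and the nesprin gene Syne1 (530501 bp) 17. Per length, Lama2, Utrn and Syne1 lay below the 50.9 regions per Mb inside protein-coding genes of chromosome 10.

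The shares below stand beside 71% of all protein-coding genes of the chromosome, whose median best percentile was 77.8. Growth and cell cycle genes had 17 of 20 members with a region within 5 kb (85%, interval 62.1 to 96.8%), with a median best percentile of 75.4. They were led by Gadd45b (51.1-fold and 41.3-fold), Igf1, the main growth factor of muscle (52.2-fold and 32.7-fold), the antiproliferative gene Btg1 (32.0-fold and 49.7-fold) and the stress-induced gene Sesn1 (36.2-fold and 38.9-fold). Zwint, Timeless and Socs2 had none. Metabolic genes had 14 of 15 (93.3%, interval 68.1 to 99.8%, median 81.4), led by Tfam, the hexokinase gene Hk1 (50.04-fold and 43.3-fold) and the neighbours Ndufs7 and Gamt, which share a region of 28.0-fold and 46.6-fold. Only Uqcr11 had none. Matrix genes had 8 of 13 (61.5%, interval 31.6 to 86.1%, median 54.9), led by Col13a1 (24.2-fold and 27.9-fold), Adamts14 (23.4-fold and 16.9-fold), Epyc (13.6-fold and 18.9-fold) and the collagen VI gene Col6a1 (11.4-fold and 7.85-fold). The small proteoglycan genes Lum, Dcn and Kera and the genes Timp3 and Ntn4 had none within 5 kb.

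Genes known from other cell types were near regions too, again beside 71% of all protein-coding genes of the chromosome. Of 10 neuronal genes 9 had a region (90%, interval 55.5 to 99.7%), among them Grik2 (35.3-fold and 27.2-fold), Nav3 (31.5-fold and 28.7-fold) and the serotonin synthesis gene Tph2 (26.1-fold and 28.8-fold). Of 8 liver and kidney genes 7 did (87.5%, interval 47.3 to 99.7%), led by the arginase gene Arg1 (68.3-fold and 50.8-fold), the bile acid receptor gene Nr1h4 (50.2-fold and 37.5-fold), Upb1 (31.6-fold and 34.7-fold) and Cyp27b1 (41.1-fold and 26.1-fold). Of 10 blood genes 5 did (50%, interval 18.7 to 81.3%), led by Myb (20.4-fold and 31.8-fold), Elane (11.5-fold and 14.3-fold), Srgn (18.8-fold and 8.50-fold) and Prf1 (9.63-fold and 7.24-fold). The median best percentiles of these 3 lists were 87.3, 92.5 and 68.7. The clusters of olfactory and vomeronasal receptor genes had 35 of 89 members, pseudogenes included, near a region (39.3%, interval 29.1 to 50.3%, median 70.2). The best regions there were near Olfr763 (39.9-fold and 62.5-fold), Olfr9 (52.9-fold and 54.2-fold), Vmn2r87 (52.8-fold and 47.3-fold) and Olfr827 (34.5-fold and 49.4-fold). The lists were small, some neighbouring members share a region, and 76 of the 89 receptor genes are protein-coding, so the intervals cover counting error only and lists are not ranked. The interval of every list held 71%, except that of the receptor clusters, which lay below it. Many receptor genes are short, such as Olfr763 with 930 bp, against a median of 17253 bp for protein-coding genes of the chromosome. The stretches of 5 kb around the ends of a short gene overlap, so less DNA was searched. The share at equal gene length was not tested.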

How the data were processed

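Odd pool, even pool and input libraries were made by tagmentation, per the labels, and 2 peak lists in the narrowPeak layout were deposited. Build mm10, MACS2 2.1.1, Picard 2.9.2 and Bowtie2 2.3.2 are named in the submitters' processing notes, and the sources used here do not give the threshold, the control or any merging of pools. A list stands for a replicate as a whole and has no error of its own. The fold (ratio over background), the −log10 p and q, the score and the summit position are the authors' deposited values. Nothing says that replicates were separate cultures.

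Densities divide by the length from position 0 to the last peak or gene, and windows take midpoints. Genes came from RefSeq GRCm38.p6, and 328 genes listed before position 2900000 of other autosomes, where no peak lies, were left out. Pileup and background were solved from fold and p, a step tested on 9479 simulated peaks. These were drawn under the same Poisson model, and simulated peaks with a p too small to compute were left out. The simulation thus checks the solving, and not whether the model holds for the lists or for their strongest peaks. Promoters are the 250 bases before a gene's start, and no stretch inside a gene's span is printed. The members, lists and rules were chosen with earlier results of these data known: lists of chromosome 10 genes were taken whole, and values are given for the 4 members of each list with the best region, the 10 strongest regions, the 4 densest and 4 sparsest windows and the 4 genes with most regions. Genes named beside them as without a region, as long or at promoters were chosen after their values were seen, and so was the background comparison. One of the strongest regions and 1 listed gene are not reported here. Depth is known only through the floor, and intervals cover counting error. Software was scipy 1.17.1, pandas 2.3.3, matplotlib 3.10.9 and numpy 2.4.6 under Python 3.11.15.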

Additional observations from a re-analysis of the deposited data

How the results depend on the processing

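No test was run, so a value counts as moved where it shifted by more than the SD between the 2 lists. The density ratio of chromosome 10 to the other autosomes, 1.27, moved by this measure in 12 of 13 alternatives, since the lists alone agree closely, and stayed above 1 in all 13. It was 1.25 and 1.27 for peaks of at least 5-fold and 20-fold, 1.26 at 40-fold, 1.47 for the 10000 strongest peaks, 1.27 with a reciprocal overlap of 50%, 1.39 for pileups of at least 40, 1.33 for bases covered, 1.27 over the span from first to last peak or gene, 1.26 without the densest 10% of windows and 1.28 against the median autosome. Either list alone gave 1.22 (1.218 each). Chromosome 10 was first of 19 except at 40-fold, where chromosome 7 had 2.42 shared regions per Mb against 2.37. The ratio of window medians, 1.26, was 1.31 with windows starting at 500000, 1.30 with windows of 2 Mb, 1.30 with the reciprocal overlap, and 1.19 to 1.25 in either list alone. In replicate 2 alone, chromosome 11 had a median of 78 peaks per window against 77.5. The gene density ratio, 0.904, turned to 1.02 for bases in protein-coding genes. The median fold difference, -0.046, was 0.083 for partnered and -0.29 for unpartnered peaks, 0.022 at −log10 q of at least 5, 0.57 at the 90th percentile and 0.51 in −log10 q, and -0.093 to 0 in either list alone, moved in 5 of 7. The share of chromosome 10 genes near a region, 71.0%, was 37.6% within 1 kb, 57.4% with the reciprocal overlap and 24.4% for peaks of at least 20-fold, first of 19 in each. At 20-fold the counts of listed genes were 6 for muscle, 6 for growth, 5 for metabolism, 1 for matrix, 1 for blood, 4 for neuron and 4 for liver and kidney. Alternatives on pileup, 40-fold, gene windows and background were chosen after seeing the data. No paired analysis was possible because the lists give no separate values for the odd, even and input samples that share a replicate number. Few peaks reached 80-fold, so ranks there rest on small counts.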

Other observations

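The sex chromosomes lay on the other side of the autosomes in both measures. Chromosome X held 18.8 shared regions per Mb and chromosome Y 24.1. A local background above the floor was found for 20.4% of X peaks and 11.9% of Y peaks in replicate 1, and for 8.71% and 5.68% in replicate 2. The median peak of both was at the floor in both lists.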
